A study of Mus musculus with 6 samples.

Results

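The genes described here are 10 mouse genes of phosphate, klotho and vitamin D handling, followed through whole kidneys from mice in a diabetic kidney disease (DKD) group and a control group. They were taken by name from a table of 55401 Ensembl gene IDs, and each name matched an ID in the table. All 10 passed the low count filter that left 19197 genes for testing. RNA was poly(A)-selected and sequenced from 3 DKD kidney libraries and 3 control kidney libraries. From the labels, the group and a replicate number are known. They do not give the strain, the way diabetes was produced, the sex, the age or the diet, and they do not say outright that each library comes from a separate mouse, so the p-values cover only the spread among these 6 libraries, some of which may be technical.

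The kidney sets how much phosphate the body keeps. Proximal tubule cells reclaim filtered phosphate through sodium-phosphate cotransporters of the brush border, and parathyroid hormone (PTH) and the bone hormone FGF23 lower that uptake by removing the transporters from the membrane. FGF23 acts through an FGF receptor paired with klotho, and it also shifts vitamin D handling by holding down the enzyme that makes the active hormone and raising the enzyme that breaks it down. Loss of klotho and a disturbed balance of these hormones are known features of chronic kidney disease.

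The expression of Slc34a1, Slc34a3 and Slc20a1 is where the phosphate transporters part ways below, so the 250 bases before their start sites are shown here, 5′ to 3′ on the strand of the gene. The sequences are from RefSeq on GRCm38.p6, a different build from the one the counts were made on. Slc34a1 is shown at chr13:55399398-55399647 on the plus strand, Slc34a3 at chr2:25234235-25234484 on the minus strand, and Slc20a1 at chr2:129198523-129198772 on the plus strand. Capitals mark AGGTCA and AGTTCA, hexamers of the kind that nuclear receptors bind, and GTTAAT, the core of a half-site of HNF1 factors, each read on both strands.
Slc34a1: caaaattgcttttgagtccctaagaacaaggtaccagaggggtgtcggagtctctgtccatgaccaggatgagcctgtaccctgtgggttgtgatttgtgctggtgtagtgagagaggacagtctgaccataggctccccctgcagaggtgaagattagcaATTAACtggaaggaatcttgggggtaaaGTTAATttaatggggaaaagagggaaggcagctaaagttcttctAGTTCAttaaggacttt
Slc34a3: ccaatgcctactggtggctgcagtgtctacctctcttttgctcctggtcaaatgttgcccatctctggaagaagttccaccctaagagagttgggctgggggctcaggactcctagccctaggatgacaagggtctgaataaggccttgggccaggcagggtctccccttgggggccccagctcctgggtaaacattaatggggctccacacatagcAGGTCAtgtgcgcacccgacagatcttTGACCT
Slc20a1: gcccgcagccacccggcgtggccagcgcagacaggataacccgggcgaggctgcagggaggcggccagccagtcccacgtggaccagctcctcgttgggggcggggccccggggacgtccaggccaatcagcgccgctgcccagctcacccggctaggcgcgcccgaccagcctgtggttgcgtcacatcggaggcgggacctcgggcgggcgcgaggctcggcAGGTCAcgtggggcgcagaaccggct
The Slc34a1 window held 2 matches to GTTAAT and 1 to AGTTCA, the Slc34a3 window held 2 matches to AGGTCA, and the Slc20a1 window held 1 match to AGGTCA. Of 32851 promoter windows of the same length, 14% held AGGTCA, 11.8% held AGTTCA and 6.43% held GTTAAT. No marked stretch belongs to more than 1 motif, and a match describes letters only. Windows were found for 7 of the 10 genes, without Slc20a2, Fgfr1 and Cyp24a1. Of the windows not shown, those of Kl, Cyp27b1 and Pth1r held 0 matches. That of Vdr held 1 match to AGTTCA, and another window of Slc20a1 held 1 match to AGGTCA.

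Library totals ran from 71588579 to 77417638 counts in DKD and from 64816622 to 72845799 counts in control kidneys. In a principal component analysis DKD replicates 2 and 3 separated from all others along component 1 (44.4% of the variance), and DKD replicate 1 separated along component 2 (21.0%). Markers of proximal tubule, loop of Henle, distal tubule, collecting duct and podocytes were counted in every library, as the kidney label requires. DKD replicate 1 also held hepatocyte transcripts: the 24 listed genes summed to 5426 CPM there (read counts scaled to library size with TMM factors), against 635 and 778 CPM in DKD replicates 2 and 3 and 568 to 730 CPM in control kidneys. Of those 24 genes, 8 were at 0 in all control kidneys, Ahsg and Serpina3k among them. DKD replicates 2 and 3 also exceeded all control kidneys for some of them, such as Fgg, at 119, 33.2 and 37.5 CPM in DKD replicates 1 to 3, against 5.62 to 8.13 CPM in control kidneys. Others went the other way in DKD replicates 2 and 3. Alb was at 9.47 and 7.20 CPM there, against 12.2 to 14.7 CPM in control kidneys. Serpina1a was at 92.3 and 88.2 CPM, against 172 to 258 CPM, and Ahsg and Serpina3k were at 0. Of the 16 genes tested without DKD replicate 1, 12 lay above and 4 below no difference. The fits of the 10 genes and of the pathway genes given with statistics below are therefore reported with and without DKD replicate 1. The part of hepatocyte RNA in them was not tested. DKD replicate 1 was also the DKD library nearest the controls on component 1, at -27.4. Control kidneys lay at -49.6 to -39.5 there, and DKD replicates 2 and 3 at 76.1 and 87.1. The fits without it thus compare 2 DKD with 3 control libraries and drop the most control-like DKD library, not hepatocyte RNA alone.

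With edgeR's quasi-likelihood test on all 6 libraries, 0 of the 10 genes passed an adjusted p of 0.05 (Benjamini-Hochberg over all genes tested), as did 0% of all genes. At an unadjusted p under 0.05 there were 3 of 10, Slc34a1, Slc20a1 and Cyp24a1, where the share over all genes was 19.2%, with 12.2% higher and 7.05% lower in DKD. Without DKD replicate 1, 4 of 10 passed the adjusted threshold: Slc34a1 and Slc34a3 fell and Slc20a1 and Cyp24a1 rose. In that fit 15.5% of all genes passed, with 9.67% higher and 5.84% lower in DKD. DESeq2 on all 6 libraries called 1 member, Cyp24a1, and 9.11% of all genes. Limma-voom with sample quality weights called 5 members, the 4 above and Vdr, and 17.7% of all genes. For 4 of 10 members all DKD kidneys lay on 1 side of all control kidneys, 3 higher and 1 lower, where the share over all genes was 25.4%. With 10 genes and backgrounds of this size, these counts describe the members and set them apart from no other genes. The median log2 difference of the 10 genes was 0.15, beside 0.02 over all genes tested.

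**Figure D1:**
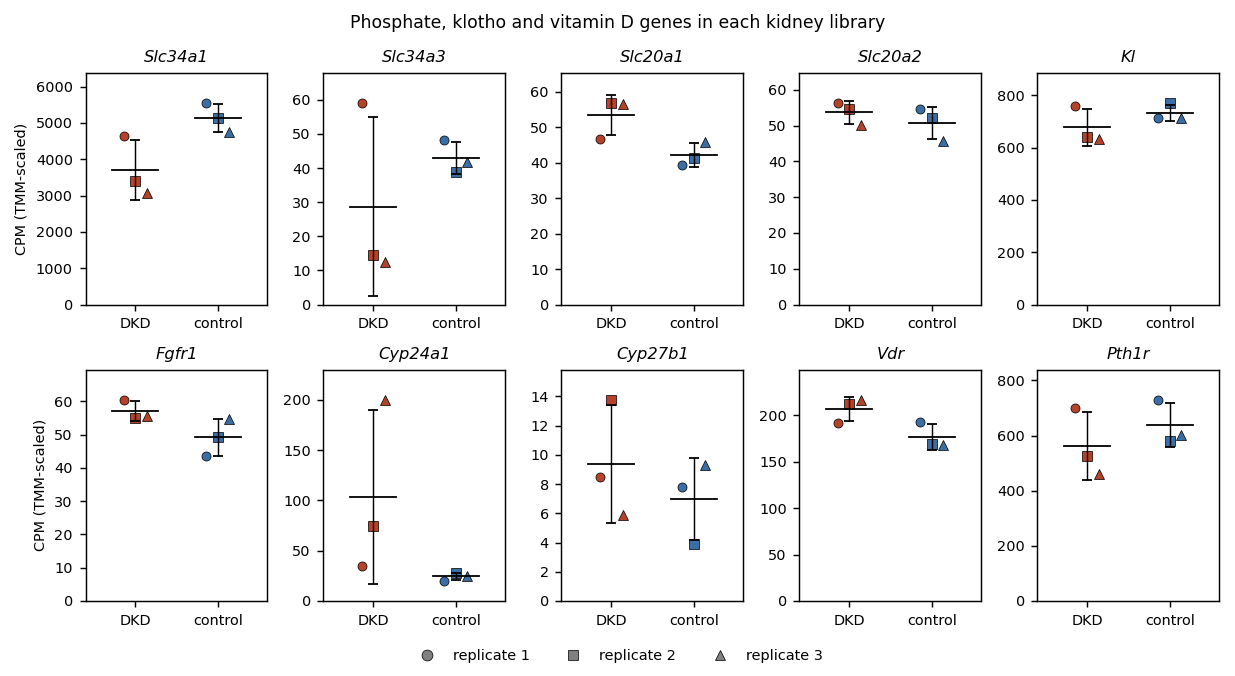
TMM-scaled CPM of each of the 10 genes in 3 DKD (left, red) and 3 control (right, blue) kidney libraries; symbols give the replicate number, horizontal lines the mean and bars the SD, and each vertical axis starts at 0. DKD replicates 2 and 3 lie below every control kidney for Slc34a3 and above every control kidney for Cyp24a1, while DKD replicate 1 lies above the controls for both genes.

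Slc34a1 encodes NaPi-IIa, the main brush border phosphate cotransporter of the mouse proximal tubule. Its level was 4632, 3404 and 3085 CPM in DKD replicates 1 to 3, against 5539, 5129 and 4762 CPM in control replicates 1 to 3. Every DKD kidney was below every control kidney, with DKD replicate 1 only just so. The log2 difference was -0.47 ± 0.18 (SE, n = 3 per group; edgeR adjusted p = 0.222). Without DKD replicate 1 the gene fell, by 0.67 ± 0.11 on the log2 scale (edgeR adjusted p = 0.0111). In whole-kidney RNA, fewer cells of a type and less RNA per cell cannot be told apart. Of the exon bases of Slc34a1, 11.7% are shared with Pfn3 on the other strand in the GENCODE annotation used here, and without the strand setting of the counting the reads of the pair cannot be told apart.

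Slc34a3 encodes NaPi-IIc, the second brush border cotransporter of this family, whose loss in people causes hereditary hypophosphataemic rickets with hypercalciuria. It was at 58.9, 14.6 and 12.5 CPM in DKD replicates 1 to 3, against 48.1, 39.0 and 41.9 CPM in control replicates 1 to 3. DKD replicate 1 was the highest of the 6 libraries, and DKD replicates 2 and 3 were the lowest, at 0.340 and 0.291 times the control mean. Over all 6 libraries the log2 difference was -0.58 ± 0.61 (SE; edgeR adjusted p = 0.636), so its SE was as large as the difference. The means were 28.7 ± 26.2 CPM in DKD and 43.0 ± 4.65 CPM in control kidneys (SD). Without DKD replicate 1, Slc34a3 fell by 1.67 ± 0.14 on the log2 scale (edgeR adjusted p = 0.00144), the lowest log2 difference of the 10 genes in that fit. For each 1000 reads of Slc34a1 there were 12.7, 4.29 and 4.06 reads of Slc34a3 in DKD replicates 1 to 3, against 8.68, 7.60 and 8.79 in control replicates 1 to 3. The ratio of the pair thus lay above the controls in DKD replicate 1 and below them in DKD replicates 2 and 3.

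Slc20a1 and Slc20a2 encode PiT-1 and PiT-2, sodium-phosphate cotransporters of another family that are present in most cell types. Slc20a1 was at 46.9, 56.8 and 56.6 CPM in DKD replicates 1 to 3, against 39.4, 41.2 and 45.9 CPM in control replicates 1 to 3. Every DKD kidney was above every control kidney, DKD replicate 1 by a small margin. Its log2 difference was 0.34 ± 0.11 (SE; edgeR adjusted p = 0.178), and without DKD replicate 1 it rose by 0.42 ± 0.10 (edgeR adjusted p = 0.0343). Antisense transcripts share 8.1% (9830144P21Rik) and 5.02% (Gm4430) of the exon bases of Slc20a1. Slc20a2 was at 56.2, 54.6 and 50.2 CPM in DKD replicates 1 to 3, against 54.6, 52.0 and 45.8 CPM in control replicates 1 to 3. The groups overlapped, and the log2 difference was 0.08 ± 0.10 (SE; edgeR adjusted p = 0.685), and 0.036 ± 0.11 without DKD replicate 1 (edgeR adjusted p = 0.865).

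Most proximal tubule markers had lower values in DKD, as Slc34a1 did. Of 25 listed genes, which exclude the 10 described here, 22 had a fitted level below that of control kidneys, 0 passed the threshold on all 6 libraries, and 14 fell without DKD replicate 1, where 5.84% of all genes fell. Their summed level was 56956, 37038 and 32328 CPM in DKD replicates 1 to 3, against 59930 to 73156 CPM in control kidneys. Read against that sum, Slc34a1 stood at 102%, 115% and 120% of the control mean in DKD replicates 1 to 3, against 94.9% to 106% in control kidneys. So its share of proximal tubule reads was not lower in DKD, although its CPM was. Slc34a3 stood at 156%, 59.3% and 58.2% of the control mean in DKD replicates 1 to 3, against 96.2% to 105% in control kidneys, so its drop in replicates 2 and 3 went beyond that of the summed markers. It did not go beyond that of every single marker. In CPM, Slc34a3 was at 0.340 and 0.291 times the control mean in replicates 2 and 3, and the listed gene Cyp2e1 at 0.419 and 0.263 times. The other listed genes were lowered less than Slc34a3 in these replicates. Kap, an androgen-driven transcript of the proximal tubule, held 39.3%, 30.4% and 21.4% of the sum in DKD replicates 1 to 3, against 31.8% to 35.7% in control kidneys. Leaving Kap out gave 112%, 110% and 101% for Slc34a1 and 171%, 56.7% and 49.3% for Slc34a3 in DKD replicates 1 to 3. The part of proximal tubule content in these results was not tested.

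**Figure D2:**
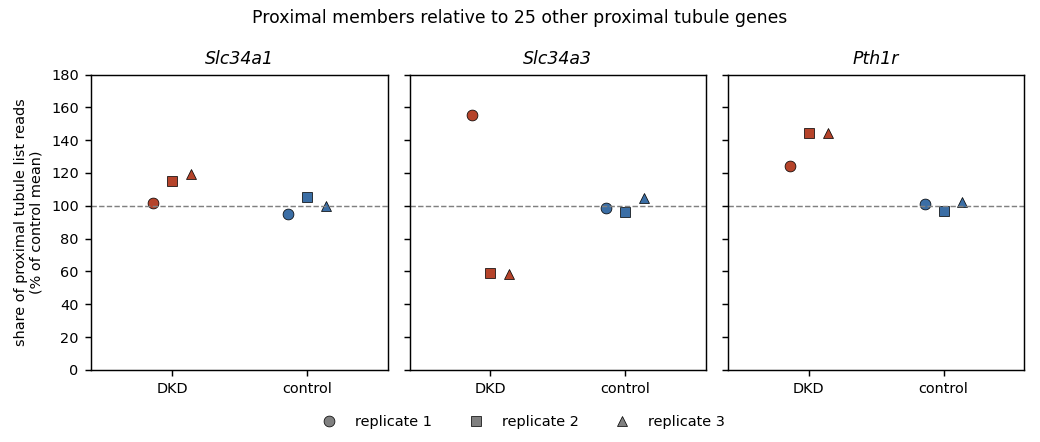
Reads of Slc34a1, Slc34a3 and Pth1r as a share of the summed reads of 25 other proximal tubule genes, in percent of the control mean (dashed line at 100), in 3 DKD (left, red) and 3 control (right, blue) kidney libraries; symbols give the replicate number. Slc34a3 is at 59.3% and 58.2% in DKD replicates 2 and 3 and at 156% in DKD replicate 1, while Slc34a1 and Pth1r are at or above 102% in all DKD libraries.

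Pth1r encodes the receptor for PTH, which in the proximal tubule signals the withdrawal of phosphate transporters and switches on the enzyme that activates vitamin D. It was at 698, 526 and 460 CPM in DKD replicates 1 to 3 (459.6 CPM in replicate 3 before rounding), against 730, 581 and 603 CPM in control replicates 1 to 3. DKD replicates 2 and 3 were below all control kidneys, and DKD replicate 1 was within them. The log2 difference was -0.18 ± 0.18 (SE; edgeR adjusted p = 0.607), and -0.38 ± 0.13 without DKD replicate 1 (edgeR adjusted p = 0.102). Against the proximal tubule sum, Pth1r stood at 124%, 144% and 144% of the control mean in DKD replicates 1 to 3, against 96.7% to 102% in control kidneys. Its share of proximal tubule reads was thus higher in every DKD kidney, and it stood at 136%, 138% and 122% in DKD replicates 1 to 3 with Kap left out. In CPM, Pth1r stood at 1.10, 0.825 and 0.721 times the control mean. The listed markers themselves went both ways. Pck1 stood at 1.36, 1.22 and 1.23 times its control mean in DKD replicates 1 to 3, and Acsm2 at 0.858, 0.438 and 0.383 times. A raised share was thus not particular to Pth1r.

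Kl encodes klotho, the membrane protein that turns an FGF receptor into a receptor for FGF23 and is made mostly in the distal convoluted tubule. It was at 759, 641 and 634 CPM in DKD replicates 1 to 3, against 713, 769 and 713 CPM in control replicates 1 to 3. DKD replicates 2 and 3 lay below the controls, at 0.876 and 0.866 times their mean, and DKD replicate 1 lay within them. The log2 difference was -0.11 ± 0.12 (SE; edgeR adjusted p = 0.640), and -0.21 ± 0.09 without DKD replicate 1 (edgeR adjusted p = 0.179). Scaled by library size alone, the difference was 0.036, so its direction depended on the scaling, which moved the median of all genes to 0.17. The 15 listed markers of the distal convoluted and connecting tubule summed to 4310, 4759 and 4144 CPM in DKD replicates 1 to 3, against 3790 to 4326 CPM in control kidneys.

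Fgfr1 encodes the FGF receptor that klotho most readily binds. It was at 60.5, 55.1 and 55.6 CPM in DKD replicates 1 to 3, against 43.5, 49.2 and 54.8 CPM in control replicates 1 to 3. Every DKD kidney was above every control kidney, by less than 1 CPM at the nearest point. The log2 difference was 0.22 ± 0.11 (SE; edgeR adjusted p = 0.317), and 0.16 ± 0.12 without DKD replicate 1 (edgeR adjusted p = 0.397). Fgfr1 is also expressed in fibroblasts and pericytes, whose 10 listed markers summed to 286, 255 and 357 CPM in DKD replicates 1 to 3, against 117 to 175 CPM in control kidneys. The part of those cells in the Fgfr1 level was not tested.

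Cyp24a1 encodes the 24-hydroxylase that breaks down active vitamin D and its precursor, and it is a classic target of the vitamin D receptor. It showed the largest difference of the 10 genes. Its level was 34.4, 75.0 and 200.01 CPM in DKD replicates 1 to 3, against 20.1, 27.7 and 25.2 CPM in control replicates 1 to 3. Every DKD kidney was above every control kidney, but the DKD kidneys were far apart, at 1.41, 3.08 and 8.22 times the control mean. The log2 difference was 2.08 ± 0.63 (SE; edgeR adjusted p = 0.176), and without DKD replicate 1 Cyp24a1 rose by 2.49 ± 0.41 (edgeR adjusted p = 0.0167). DESeq2 on all 6 libraries also called it (adjusted p = 0.0383). Without DKD replicate 3, the highest library, the log2 difference was 1.17 ± 0.33 (edgeR adjusted p = 0.350). Exons of Pfdn4 on the other strand share 2.33% of the exon bases of Cyp24a1.

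Cyp27b1 encodes the 1-alpha-hydroxylase that makes active vitamin D in the proximal tubule. It had the fewest counts of the 10 genes, 256 to 1061 per library. It was at 8.48, 13.8 and 5.87 CPM in DKD replicates 1 to 3, against 7.79, 3.88 and 9.30 CPM in control replicates 1 to 3. The groups overlapped on both sides, and the log2 difference was 0.42 ± 0.41 (SE; edgeR adjusted p = 0.596), and 0.48 ± 0.46 without DKD replicate 1 (edgeR adjusted p = 0.533). For each read of Cyp27b1 there were 4.06, 5.45 and 34.1 reads of Cyp24a1 in DKD replicates 1 to 3, against 2.58, 7.15 and 2.71 in control replicates 1 to 3. Only DKD replicate 3, with the most Cyp24a1 and the least Cyp27b1 among DKD kidneys, lay outside the range of the controls.

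Vdr encodes the vitamin D receptor, the nuclear receptor through which the active hormone sets transcription. It was at 192, 212 and 217 CPM in DKD replicates 1 to 3, against 193, 169 and 168 CPM in control replicates 1 to 3. DKD replicates 2 and 3 were above all control kidneys, and DKD replicate 1 was below control replicate 1 alone. The log2 difference was 0.23 ± 0.11 (SE; edgeR adjusted p = 0.290), and 0.27 ± 0.10 without DKD replicate 1 (edgeR adjusted p = 0.125). Limma-voom with quality weights called it higher on all 6 libraries (log2 difference 0.30 ± 0.08; adjusted p = 0.0348).

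**Figure D3:**
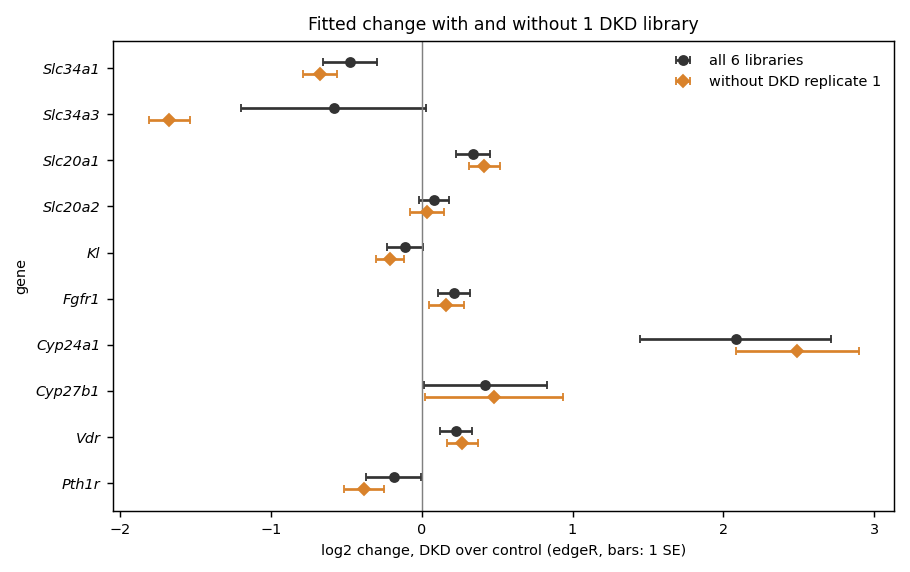
Fitted log2 change of DKD over control for the 10 genes (rows), from edgeR on all 6 libraries (black circles) and without DKD replicate 1 (orange diamonds); bars are 1 SE and the vertical line marks no difference. Slc34a3 lies at -0.58 ± 0.61 on all libraries and at -1.67 ± 0.14 without that library, and Cyp24a1 lies farthest to the right in both fits.

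Set on a scale that allows genes to be compared, CPM per kilobase of exon, the 10 genes spanned a wide range. In DKD kidneys the group means ran from 793 for Slc34a1 through 192 for Pth1r, 72.7 for Kl, 36.6 for Vdr, 29.0 for Cyp24a1, 12.2 for Slc34a3, 9.57 for Slc20a1, 8.63 for Slc20a2 and 5.78 for Fgfr1 to 3.64 for Cyp27b1. In control kidneys the order was Slc34a1 (1100 per kilobase, or 1099.9 unrounded), Pth1r (218), Kl (78.5), Vdr (31.3), Slc34a3 (18.2), Slc20a2 (8.17), Slc20a1 (7.56), Cyp24a1 (6.84), Fgfr1 (4.98) and Cyp27b1 (2.72). The first 4 places were the same and did not overlap between neighbours in control kidneys, whereas the ranges of Slc20a2, Slc20a1 and Cyp24a1 overlapped there. Cyp24a1 held place 5 in DKD and place 8 in control kidneys, and its DKD range, 9.67 to 56.2 per kilobase, took in the level of Vdr in each DKD library. Slc34a3 held its DKD place through replicate 1, at 25.0 per kilobase. In DKD replicates 2 and 3 it was at 6.19 and 5.31 per kilobase. There it lay below Slc20a1 (10.2 and 10.1) and Slc20a2 (8.78 and 8.08). By this scale Slc34a1 lay above 99.8% of all genes tested in both groups, and Cyp27b1 above 56.7% in DKD and 52.1% in control kidneys.

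Other genes of phosphate transport, including the scaffolds that hold NaPi-IIa in the brush border, were lower more often than higher. All 19 were tested, and 6 lay above and 13 below no difference (median log2 difference -0.20). Of these, 0 passed the edgeR threshold, with 2 higher and 5 lower at an unadjusted p under 0.05, beside 12.2% higher and 7.05% lower over all genes. In the fit without DKD replicate 1, 7 fell and 0 rose, beside 5.84% and 9.67% of all genes. The scaffolds and the Slc17 transporters are themselves expressed in the proximal tubule, 22 of whose 25 listed markers were below no difference (median log2 difference -0.55), and the part of proximal tubule content in this list was not tested. Those 7 are named after their values were seen: the brush border scaffolds Nherf1, Pdzk1 and Pdzd3, the transporters Slc17a1 and Slc17a3, the phosphatase Alpl, and Enpp1. Nherf1, the scaffold that binds NaPi-IIa at the membrane, was at 365, 253 and 253 CPM in DKD replicates 1 to 3, against 413, 374 and 366 CPM in control replicates 1 to 3. DKD replicate 1 was just below the lowest control kidney. On all libraries its log2 difference was -0.40 ± 0.17 (edgeR adjusted p = 0.247), and without DKD replicate 1 Nherf1 fell by 0.61 ± 0.10 on the log2 scale (edgeR adjusted p = 0.0107). Pdzk1, a second scaffold of NaPi-IIa, was at 1316, 721 and 793 CPM in DKD replicates 1 to 3, against 1528, 1093 and 1126 CPM in control replicates 1 to 3, and the groups overlapped through DKD replicate 1. Its log2 difference was -0.40 ± 0.26 on all libraries (edgeR adjusted p = 0.419) and -0.73 ± 0.17 without that library (edgeR adjusted p = 0.0293). On all 6 libraries, Pdzd3, a PDZ scaffold of the brush border, averaged 95.8 ± 7.82 CPM in DKD and 125 ± 11.4 CPM in control kidneys (SD, n = 3 each), a log2 difference of -0.38 ± 0.11 (SE; edgeR adjusted p = 0.151) on all libraries and of -0.46 ± 0.11 without DKD replicate 1 (edgeR adjusted p = 0.0331). Enpp1, which makes pyrophosphate outside the cell, averaged 36.9 ± 6.63 CPM in DKD and 49.0 ± 5.00 CPM in control kidneys (log2 difference -0.41 ± 0.15; edgeR adjusted p = 0.205, and -0.57 ± 0.12 with adjusted p = 0.0214 without DKD replicate 1). Ank, which exports pyrophosphate or its precursor, averaged 9.45 ± 0.917 CPM in DKD and 5.98 ± 1.33 CPM in control kidneys (log2 difference 0.66 ± 0.21; edgeR adjusted p = 0.170, and 0.70 ± 0.23 with adjusted p = 0.0818 without DKD replicate 1). Mapk15, an atypical MAP kinase that was listed but is not itself a phosphate transporter, averaged 18.7 ± 4.00 CPM in DKD and 13.2 ± 1.16 CPM in control kidneys (log2 difference 0.50 ± 0.17; edgeR adjusted p = 0.193, and 0.53 ± 0.19 with adjusted p = 0.108 without DKD replicate 1). Ank and Mapk15 were the 2 genes higher at an unadjusted p under 0.05.

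The list of FGF23, the klotho family and FGF receptor signalling was spread around no change. The filter kept 20 of 25, and 13 lay above and 7 below no difference (median log2 difference 0.08). Of these, 0 passed the edgeR threshold, with 2 higher and 1 lower at an unadjusted p under 0.05, beside 12.2% and 7.05% of all genes. Leaving out DKD replicate 1, Fgfr2, Spry1 and Etv4 rose and Galnt3, Fgfr3 and Fgfr4 fell, 3 in each direction, beside 9.67% of all genes that rose and 5.84% that fell in that fit. Fgfr3 and Fgfr4 are named after their values were seen. Fgfr4, an FGF receptor that can also pair with klotho, was at 69.3, 41.5 and 34.0 CPM in DKD replicates 1 to 3, against 64.2, 73.6 and 78.7 CPM in control replicates 1 to 3. DKD replicate 1 lay among the control kidneys. On all libraries its log2 difference was -0.58 ± 0.26 (edgeR adjusted p = 0.273), and without DKD replicate 1 Fgfr4 fell by 0.94 ± 0.13 on the log2 scale (edgeR adjusted p = 0.00701). Fgfr2, another FGF receptor, averaged 25.4 ± 0.782 CPM in DKD and 15.0 ± 1.75 CPM in control kidneys, and its values did not overlap between the groups (log2 difference 0.76 ± 0.12; edgeR adjusted p = 0.103, and 0.77 ± 0.13 with adjusted p = 0.0113 without DKD replicate 1). Galnt3, the glycosyltransferase that protects FGF23 from cleavage in bone, averaged 59.4 ± 4.50 CPM in DKD and 86.8 ± 8.60 CPM in control kidneys, again without overlap (log2 difference -0.55 ± 0.11; edgeR adjusted p = 0.103, and -0.62 ± 0.11 with adjusted p = 0.0145 without DKD replicate 1). Spry1, a feedback inhibitor of receptor tyrosine kinases, differed by 0.59 ± 0.22 and Etv4, a transcription factor switched on by FGF signals, by 1.23 ± 0.52 on the log2 scale, with edgeR adjusted p of 0.210 and 0.260. Without DKD replicate 1 Spry1 rose by 0.74 ± 0.19 and Etv4 by 1.61 ± 0.35 (edgeR adjusted p = 0.0414 and 0.0250). Fgf23 itself and Mepe had 0 counts in all libraries, which allows up to 0.0353 to 0.0394 CPM in DKD and 0.0423 to 0.0505 CPM in control kidneys, for counting error only. Klb, the partner of klotho that is abundant in liver and is named here after its values were seen, had 57, 20 and 4 counts in DKD replicates 1 to 3 and 0 in the control kidneys, too few for the filter.

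Genes of vitamin D uptake, activation and receptor partners were lower more often than higher in DKD. All 20 were tested, and 5 lay above and 15 below no difference (median log2 difference -0.23). Of these, 0 passed the edgeR threshold, with 1 higher and 6 lower at an unadjusted p under 0.05, beside 12.2% and 7.05% of all genes. All DKD kidneys lay below all control kidneys for 8 of these genes and above them for 2, beside 11.5% lower and 13.8% higher over all genes tested. Of the 25 listed proximal tubule markers, 13 lay below in this way and 0 above, with a median log2 difference of -0.55. The part of proximal tubule content in this list was not tested. With DKD replicate 1 left out, 3 of the 20 genes fell and 0 rose, beside 5.84% and 9.67% of all genes. The 3 were Lrp2 and, named after their values were seen, Amn, the anchor of the cubilin receptor, and Fdx1, the ferredoxin that feeds electrons to the mitochondrial vitamin D hydroxylases. Lrp2, megalin, which takes filtered vitamin D with its carrier back into the proximal tubule, was at 1727, 1160 and 1218 CPM in DKD replicates 1 to 3 (1159.8 in replicate 2 before rounding), against 1935, 2177 and 2500 CPM in control replicates 1 to 3 (2499.9 in replicate 3 before rounding). Every DKD kidney was below every control kidney, with a log2 difference of -0.69 ± 0.19 (SE; edgeR adjusted p = 0.147), and without DKD replicate 1 Lrp2 fell by 0.90 ± 0.13 (edgeR adjusted p = 0.00729). Rxra, the partner with which the vitamin D receptor binds DNA, averaged 101 ± 4.58 CPM in DKD and 130 ± 12.1 CPM (129.5 unrounded) in control kidneys, without overlap (log2 difference -0.35 ± 0.10; edgeR adjusted p = 0.153, and -0.39 ± 0.11 with adjusted p = 0.0570 without DKD replicate 1). Cyp27a1, a mitochondrial sterol hydroxylase with vitamin D 25-hydroxylase activity, averaged 49.4 ± 3.68 CPM in DKD and 62.9 ± 4.68 CPM in control kidneys, also without overlap (log2 difference -0.35 ± 0.10; edgeR adjusted p = 0.151, and -0.38 ± 0.11 with adjusted p = 0.0640 without DKD replicate 1).

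Gc, the vitamin D binding protein, is made mainly by the liver. It was at 185, 89.0 and 170.0 CPM in DKD replicates 1 to 3, against 26.0, 16.9 and 66.0 CPM in control replicates 1 to 3. Every DKD kidney was above every control kidney, with a log2 difference of 2.03 ± 0.57 (SE; edgeR adjusted p = 0.159). Without DKD replicate 1 the log2 difference was 1.83 ± 0.66 (edgeR adjusted p = 0.144). Of the 16 hepatocyte markers tested, 14 lay above no difference on all 6 libraries (median log2 difference 3.94) and 12 without DKD replicate 1 (median 0.72), where 3 rose and 3 fell. Ttr, a plasma carrier protein made in liver and picked from that list after its values were seen, was at 180, 181 and 257 CPM in DKD replicates 1 to 3 (179.7 in replicate 1 before rounding), against 89.3, 0.485 and 0.339 CPM in control replicates 1 to 3. Alb, the main plasma protein of liver, was at 2321, 9.47 and 7.20 CPM in DKD replicates 1 to 3, against 13.1, 12.2 and 14.7 CPM in control replicates 1 to 3. The part of hepatocyte RNA in the Gc level was not tested.

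Targets of the vitamin D receptor were higher more often than lower. The list did not separate targets that the receptor raises from those it lowers. All 13 were tested, and 10 lay above and 3 below no difference (median log2 difference 0.47). Of these, 0 passed the edgeR threshold, with 5 higher and 0 lower at an unadjusted p under 0.05, beside 12.2% and 7.05% of all genes. In the fit without DKD replicate 1, 4 rose and 0 fell, beside 9.67% and 5.84% of all genes. The 4 were Trpv5, Calb1 and, named after their values were seen, Slc8a1, a sodium-calcium exchanger, and Sgk1, a kinase of sodium transport. Trpv5, the calcium entry channel of the distal tubule, was at 16.6, 24.0 and 28.4 CPM in DKD replicates 1 to 3, against 14.1, 13.5 and 10.2 CPM in control replicates 1 to 3. Calb1, which carries calcium across the same cells, was at 417, 571 and 656 CPM in DKD replicates 1 to 3, against 319, 378 and 231 CPM in control replicates 1 to 3. Both genes were higher in every DKD kidney than in every control kidney. In DKD replicate 1, the DKD library nearest the controls on component 1, both were lowest among DKD kidneys, as Cyp24a1 and Slc20a1 were. The log2 differences of Trpv5 and Calb1 were 0.87 ± 0.22 and 0.83 ± 0.23 (SE; edgeR adjusted p = 0.136 and 0.149). Without DKD replicate 1 they rose by 1.05 ± 0.17 and 0.98 ± 0.20 (edgeR adjusted p = 0.0103 and 0.0194). S100g, a smaller calcium carrier, differed by 0.56 ± 0.22 (edgeR adjusted p = 0.230), also without overlap, and by 0.61 ± 0.23 without DKD replicate 1 (edgeR adjusted p = 0.125). Of the 15 markers of the distal convoluted and connecting tubule, 10 lay above and 5 below no difference, 0 passed on all 6 libraries, and 5 rose and 2 fell without DKD replicate 1. Slc12a3, the sodium-chloride cotransporter of the distal convoluted tubule, picked from that list after its values were seen, was at 852, 1602 and 1350 CPM (1349.7 unrounded) in DKD replicates 1 to 3, against 755, 951 and 746 CPM in control replicates 1 to 3. Egf, another gene of that list picked in the same way, was at 1909, 1185 and 997 CPM in DKD replicates 1 to 3, against 1572, 1589 and 1752 CPM in control replicates 1 to 3, and Pvalb was at 49.6, 26.2 and 22.0 CPM in DKD replicates 1 to 3, against 42.3, 52.7 and 45.4 CPM in control replicates 1 to 3. The markers thus went both ways, and the part of distal tubule content in these levels was not tested. Cyp3a11, a drug-metabolising P450 abundant in liver, was at 82.0, 0.143 and 0.412 CPM in DKD replicates 1 to 3, against 0.135, 0 and 0.155 CPM in control replicates 1 to 3. It was among the 10 targets above no difference and the 5 higher at an unadjusted p under 0.05. Its log2 difference on all libraries was 8.13 ± 3.01 (SE; edgeR adjusted p = 0.233). Without DKD replicate 1 it stayed above no difference but did not pass (edgeR adjusted p = 0.463). The part of hepatocyte RNA in its level was not tested.

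Genes of PTH signalling went both ways. The filter kept 17 of 20, and 7 lay above and 10 below no difference (median log2 difference -0.02). Of these, 0 passed the edgeR threshold, with 3 higher and 1 lower at an unadjusted p under 0.05, beside 12.2% and 7.05% of all genes. Leaving out DKD replicate 1, 3 rose and 0 fell, beside 9.67% and 5.84% of all genes. The 3 were Arrb2 and, named after their values were seen, Rgs2, which damps Gq signals, and Nr4a2, a transcription factor induced by cyclic AMP. Adcy6, an adenylyl cyclase that makes the cyclic AMP signal, averaged 139 ± 3.69 CPM in DKD and 108 ± 13.7 CPM in control kidneys, without overlap (log2 difference 0.36 ± 0.11; edgeR adjusted p = 0.170, and 0.36 ± 0.12 with adjusted p = 0.0958 without DKD replicate 1). Arrb1 and Arrb2 encode the beta-arrestins that switch off and internalise receptors such as Pth1r. Arrb1 averaged 63.3 ± 4.33 CPM in DKD and 53.3 ± 2.32 CPM in control kidneys (log2 difference 0.25 ± 0.09; edgeR adjusted p = 0.208, and 0.19 ± 0.10 with adjusted p = 0.229 without DKD replicate 1). Arrb2, which myeloid cells also express, averaged 13.3 ± 3.36 CPM in DKD and 9.12 ± 0.646 CPM in control kidneys (log2 difference 0.55 ± 0.21; edgeR adjusted p = 0.224). Without DKD replicate 1 it rose by 0.73 ± 0.14 (edgeR adjusted p = 0.0165). The 13 listed macrophage and T cell markers summed to 139, 243 and 304 CPM in DKD replicates 1 to 3, against 131 to 152 CPM in control kidneys, and their part in the Arrb2 level was not tested. Pde4d, a phosphodiesterase that ends the cyclic AMP signal, averaged 8.75 ± 0.795 CPM in DKD and 13.05 ± 3.87 CPM in control kidneys (log2 difference -0.58 ± 0.24; edgeR adjusted p = 0.247, and -0.51 ± 0.26 with adjusted p = 0.231 without DKD replicate 1). Pth2r, the second PTH receptor, had 0 counts in all libraries.

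**Figure D4:**
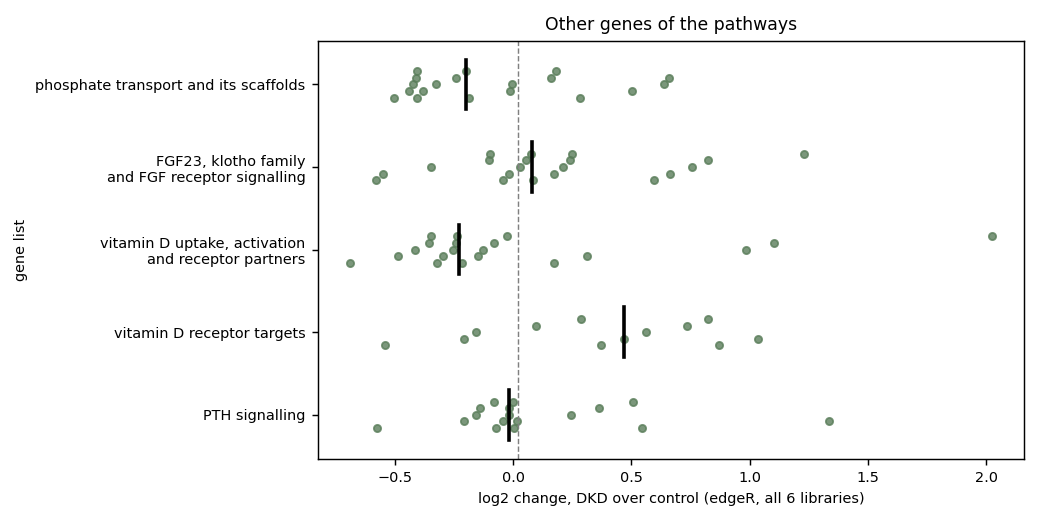
Fitted log2 change of DKD over control (edgeR, all 6 libraries) for the tested genes of 5 lists around the 10 genes (rows); each point is a gene, black bars are list medians and the dashed line is the median of all genes tested (0.02). The medians run from -0.23 for vitamin D uptake and activation to 0.47 for targets of the vitamin D receptor; Cyp3a11 lies beyond the axis and is not drawn, but counts in its median.

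Among 9620 genes with a mean of at least 10 CPM, the nearest patterns to Slc34a1 over the 6 libraries were those of Dcun1d2, Dcxr and Dnajc22, whose centred log2 CPM differed from it by 0.0207, 0.0246 and 0.0310 on average. Dcxr, a sugar and dicarbonyl reductase of the proximal tubule, was at 152, 110.4 and 100.2 CPM in DKD replicates 1 to 3, against 174, 161 and 157 CPM in control replicates 1 to 3. The nearest patterns to Kl were those of Dennd6a, Pcid2 and Cdk16, with mean differences of 0.0188, 0.0196 and 0.0207. Cdk16, a cyclin-dependent kinase, was at 119, 98.4 and 96.0 CPM in DKD replicates 1 to 3, against 108, 117 and 104 CPM in control replicates 1 to 3. These names are a description.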

How the data were processed

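The authors deposited a table of raw read counts per Ensembl gene ID for 3 DKD and 3 control kidney libraries. The build was GRCm39 and the tools listed are HISAT2, StringTie, fastp and edgeR, per the submitters' processing notes; versions, roles, annotation and strand setting were not given in the sources used here. Low counts piled up at 4 (6121 values, against 3049 at 3), while the 10 genes had at least 256 counts in each library. Symbols and exon lengths came from GENCODE vM21 (GRCm38), which paired 55141 IDs with a symbol; 2 listed genes matched through an older symbol. In R 4.3.3, edgeR 4.0.16 (quasi-likelihood, robust, two-sided, TMM factors, default low count filter) was fitted to all genes, DKD over control, with Benjamini-Hochberg adjustment and a threshold of 0.05. CPM are TMM-scaled; SE comes from the test statistic. Alternatives were RLE factors, library size alone, 2 other filters, DESeq2 1.42.0, weighted limma-voom (limma 3.58.1), a replicate block and leaving out each library. The edgeR, DESeq2 and limma-voom steps were run on simulated data. These held no outlying library, so the run cannot decide between the tools here. The members, lists and tests were chosen with earlier results of these data known. All 10 genes are named, and of each pathway list up to 4 with the smallest p; exceptions are marked. Slc12a3, Egf, Pvalb, Kap, Cyp2e1, Pck1, Acsm2, Ahsg, Serpina3k, Serpina1a, Fgg, Ttr and Alb are from the marker lists, picked after their values were seen. The sum without Kap was also chosen after seeing the data.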

Additional observations from a re-analysis of the deposited data

How the results depend on the processing

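Of all genes, edgeR called 0 on the 6 libraries, 4 with no count filter, DESeq2 called 1749 and limma-voom with quality weights 3397; leaving out each library gave 0 to 3101, with 3101 without DKD replicate 1, 7 without control replicate 1 and 1 without DKD replicate 3. Of the 10 members the counts were 0 with edgeR, 1 with DESeq2, 5 with weighted limma-voom and 0 to 4 on leaving out each library, the 4 being without DKD replicate 1. Of the genes in the 5 pathway lists they were 0, 10, 24 and 0 to 23. The cause of the differences between tools was not tested. Every member kept its direction under the 13 alternatives, except Kl with library size alone (0.036). Cyp24a1 ran from 1.17 to 2.49 and Slc34a3 from -1.67 to -0.23 on the log2 scale. Same-numbered libraries deviated together only weakly (correlations of 0.0336, 0.0227 and 0.0344). These were still above the values of unlike-numbered libraries, which ran from -0.0299 to 0.000649, so pairing was not settled. The labels state no pairing, and the numbers were not taken as pairs. With the replicate block 0 members passed, and the log2 difference was 1.72 for Cyp24a1 and -0.97 for Slc34a3. Depth was lowest for Cyp27b1, at 256 to 1061 counts per library.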
